A study of Homo sapiens with 6 samples.

Results

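The genes described here are 10 secreted inflammatory factors: the CXC chemokines CXCL1, CXCL2, CXCL3, CXCL5, CXCL6 and CXCL8, the CC chemokine CCL20, and the cytokines IL6, IL1A and IL1B. PC3 cells, a human line established from prostate cancer, were transfected with 1 of 3 siRNA preparations, and RNA was collected after 72 h. All probe sets that the platform annotation assigns to only 1 of these genes were used, 17 of the 41091 probe sets with a single gene name, for 10 of 19775 named genes. The NRP-2 siRNA group received pooled siRNA to NRP-2 (neuropilin-2) from Santa Cruz Biotechnology, the VEGF-C siRNA group pooled siRNA to VEGF-C from Dharmacon, and the scrambled siRNA group with a scrambled sequence. Each group had 2 arrays, numbered 1 and 2 in the labels, and every array was hybridised with labelled material made from 6 ug of total RNA. Each target had a single siRNA preparation, so target, supplier and preparation cannot be told apart. Whether both arrays of a group stem from separate cultures is not said in the labels. The p-values therefore cover the spread among these 6 samples alone, and that spread may be technical. Total RNA was measured, so a lower share of expressing cells and less RNA in each of them cannot be told apart.

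The CXC chemokines of this group carry a short Glu-Leu-Arg motif before their paired cysteines and attract neutrophils through the receptors CXCR1 and CXCR2. CCL20 attracts lymphocytes and dendritic cells that carry CCR6, IL-6 signals through IL6R and the shared subunit IL6ST, and IL-1 alpha and IL-1 beta signal through IL1R1 and IL1RAP. NF-kB dimers bind kappa B sites in the promoters of most of these genes, often together with AP-1 and C/EBP factors, and IL-1 itself activates NF-kB, so that the factors can induce each other. PC3 cells are known to secrete several of them in culture.

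The 6 CXC genes lie in a cluster on chromosome 4, among 9 protein-coding genes in the order CXCL8, CXCL6, PF4V1, CXCL1, PF4, PPBP, CXCL5, CXCL3 and CXCL2 in the RefSeq annotation. CCL20, IL1A and IL1B lie on chromosome 2 and IL6 on chromosome 7. RefSeq promoter windows of GRCh38.p14, with 250 bases before and 50 after each start, were found for all 10 genes (11 windows, with 2 for IL1A). They were searched on both strands for the kappa B consensus and for the AP-1 site TGANTCA. The windows of 7 genes held a kappa B match, against 5.91% of all 35116 windows, and those of CXCL8 and IL1A held an AP-1 match, against 7.71% of all windows. In the 5 CXC genes other than CXCL8 the matches on both strands overlapped in the same letters. The stretches around the kappa B matches are shown so that the letters shared by these genes can be set beside their values. Each reads 5′ to 3′ on the strand of its gene, and capitals mark the matched letters.
CXCL1: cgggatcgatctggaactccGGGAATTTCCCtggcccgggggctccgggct
CXCL2: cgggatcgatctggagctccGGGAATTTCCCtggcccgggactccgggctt
CXCL3: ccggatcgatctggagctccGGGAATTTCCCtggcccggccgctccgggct
CXCL5: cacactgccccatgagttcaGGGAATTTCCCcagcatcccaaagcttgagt
CXCL6: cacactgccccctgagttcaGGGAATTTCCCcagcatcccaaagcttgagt
CCL20: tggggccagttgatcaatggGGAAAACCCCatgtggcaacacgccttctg
IL6: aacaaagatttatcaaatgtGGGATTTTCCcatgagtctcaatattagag
They lie at chr4:73869294-73869344 (plus strand) for CXCL1, chr4:74099243-74099293 (minus) for CXCL2, chr4:74038738-74038788 (minus) for CXCL3, chr4:73998738-73998788 (minus) for CXCL5, chr4:73836568-73836618 (plus) for CXCL6, chr2:227813743-227813792 (plus) for CCL20 and chr7:22727107-22727156 (plus) for IL6. The first matched base stood 79 bases before the start in CXCL1, CXCL3 and CCL20, 78 in CXCL2, 91 in CXCL5, 90 in CXCL6 and 73 in IL6. Over the first 50 bases shown, CXCL5 and CXCL6 were identical at 49, CXCL1 and CXCL3 at 46, and CXCL1 and CXCL2 at 42. In CXCL8 the AP-1 match began 137 bases before the start.
CXCL8: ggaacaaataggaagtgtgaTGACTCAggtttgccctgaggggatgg
This stretch is chr4:73740412-73740458 on the plus strand. The window of CXCL8 held no kappa B match, and that of IL1B held neither set of letters. A missing match says nothing about whether a factor binds there. Sites that depart from the consensus were not searched for.

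Of the 10 genes, 9 had a probe set averaging log2 4 or more on the 6 arrays and entered the comparison of 11131 genes, each by its brightest probe set. IL1A, the precursor of IL-1 alpha, did not. Its brighter probe set read log2 3.08 and 2.84 on the NRP-2 siRNA arrays, 3.68 and 3.11 on the VEGF-C siRNA arrays, and 3.35 and 2.95 on the scrambled siRNA arrays, close to the medians of all probe sets (3.0 to 3.07). The other IL1A probe set stayed between 2.42 and 2.66. No level of IL1A can be told from the floor of these arrays.

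The cells carried the epithelial markers of the line. KRT8, KRT18, KRT19, EPCAM and CDH1 had mean levels of log2 12.04, 13.92, 14.17, 14.65 and 14.04, and VIM stood at 13.34. The basal keratins KRT5 and KRT14 were near the floor (1.82 and 2.26), as were the prostate markers KLK2 (2.45) and FOLH1 (2.15), while KLK3 read 6.46 and TMPRSS2 8.51 (7.02 to 9.25). TMPRSS2 was at -1.57 with NRP-2 siRNA against scrambled siRNA (SE 0.40, unadjusted p = 0.00923, adjusted p = 0.249, limma). Of the 10 leukocyte markers with a named probe set 9 had means under log2 4, PTPRC (3.21), CD14 (1.82), ITGAM (2.73) and CSF3R (2.49) among them, and LYZ ranged from 4.70 to 7.41. Of the 11 fibroblast and endothelial markers 6 had means under log2 4, COL1A2, PDGFRB, CDH5 and VWF among them, and COL1A1, PECAM1 and COL3A1 read 10.24, 9.83 and 8.0. VEGFC, a growth factor of lymphatic vessels, read 8.46 and 7.27 on the VEGF-C siRNA arrays, against 11.81 and 11.80 on the scrambled siRNA arrays. NRP2, its co-receptor, read 3.41 and 2.81 on the NRP-2 siRNA arrays, against 4.77 and 4.92 on the scrambled siRNA arrays. These NRP-2 siRNA values lie near the floor, so the size of the drop is not known. On the VEGF-C siRNA arrays NRP2 read 5.51 and 6.01 (+0.91 against scrambled siRNA, SE 0.26, unadjusted p = 0.0157, adjusted p = 0.257, limma). The mean of 26 G2 and mitosis genes differed within groups, with 11.07 and 10.00 on the NRP-2 siRNA arrays, 11.22 and 10.46 on the VEGF-C siRNA arrays, and 10.32 and 8.63 on the scrambled siRNA arrays.

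**Figure D1:**
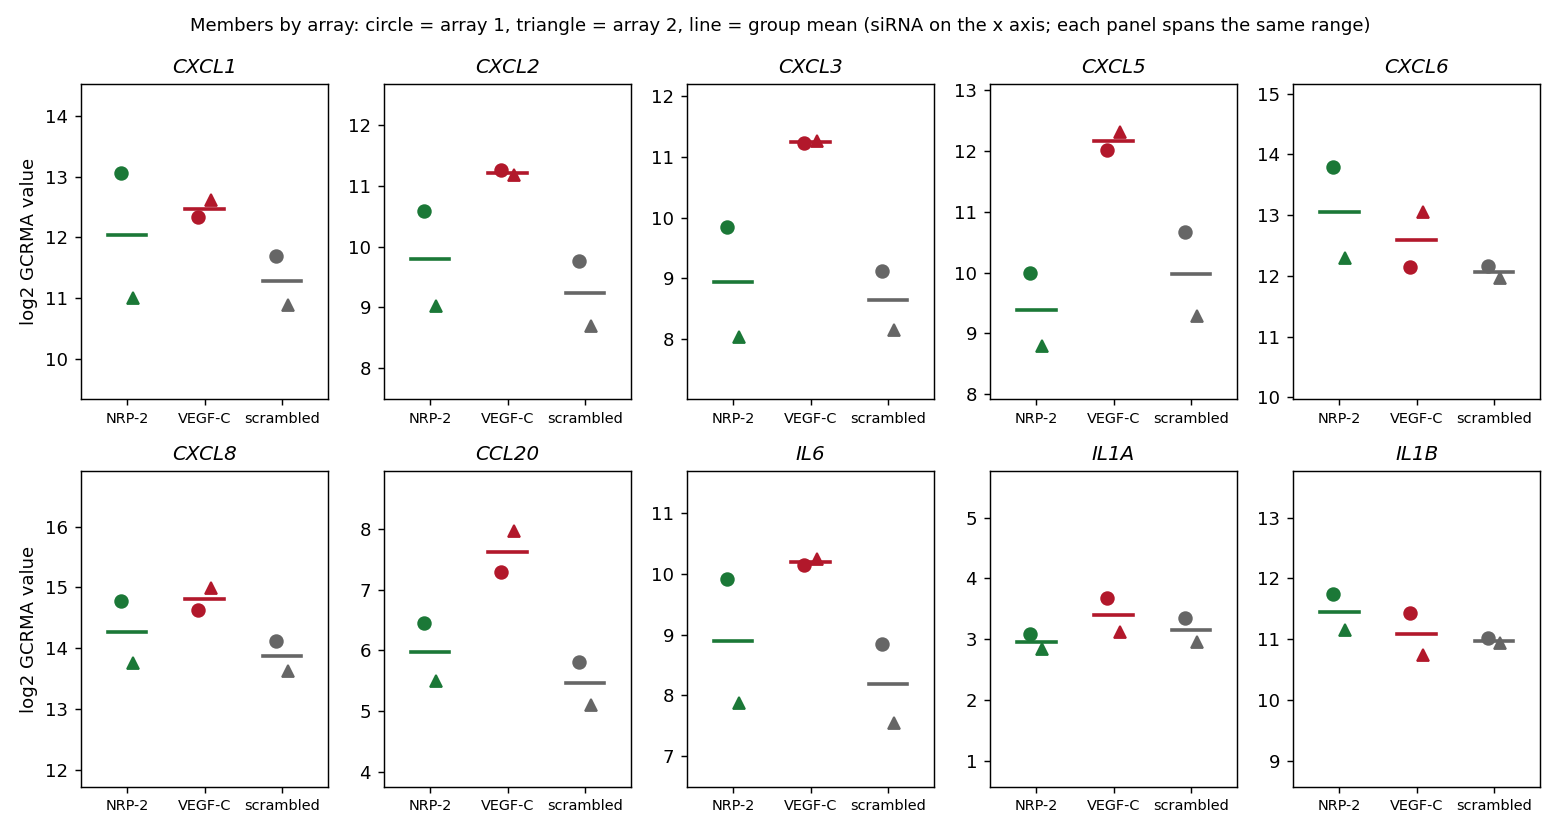
The deposited log2 GCRMA value of the brightest probe set of each of the 10 genes, by siRNA group, with array 1 as a circle, array 2 as a triangle and the group mean as a line; all panels span the same range. The VEGF-C siRNA arrays lie above both scrambled siRNA arrays for CXCL1, CXCL2, CXCL3, CXCL5, CXCL8, CCL20 and IL6, while NRP-2 siRNA array 1 lies above array 2 in every panel.

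The first comparison, VEGF-C siRNA against scrambled siRNA, addressed the siRNA to the ligand. CXCL3, CXCL5, CCL20, CXCL2 and IL6 were between 3.99-fold and 6.05-fold higher with VEGF-C siRNA and had unadjusted limma p-values under 0.05. CXCL1 and CXCL8 were 2.27-fold and 1.91-fold higher with no overlap of arrays, and CXCL6 and IL1B overlapped. None of these differences passed the Benjamini-Hochberg adjustment over all 11131 genes, of which 0 passed (0% called) and 1642 had an unadjusted p under 0.05.

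CXCL3, also called GRO gamma, read log2 11.23 and 11.26 on the VEGF-C siRNA arrays, against 9.13 and 8.16 on the scrambled siRNA arrays. Both VEGF-C arrays stood more than 2 log2 units above the higher scrambled array. The difference of means was +2.6 on the log2 scale (SE 0.63), or 6.05-fold (limma, unadjusted p = 0.00757, adjusted p = 0.238). It ranked 3 among the differences of all genes tested, counted from the highest.

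CXCL2, its close relative, read 11.26 and 11.18 on the VEGF-C siRNA arrays, against 9.76 and 8.70 on the scrambled siRNA arrays. The groups did not overlap, and the difference was +2.0 (SE 0.58, unadjusted p = 0.0158, adjusted p = 0.257, limma). This probe set carries the suffix that Affymetrix gives to probes which may also bind similar transcripts, as do the main probe sets of CXCL5 and CXCL8. CXCL1, CXCL2 and CXCL3 are close relatives, so signal may be shared between them, but their transcript sequences were not compared. The probe sets of CXCL1 and CXCL3 do not carry that suffix. The other 2 CXCL2 probe sets stayed near the floor, between 2.71 and 3.36 on all arrays.

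CXCL1, also called GRO alpha, read 12.33 and 12.62 on the VEGF-C siRNA arrays, against 11.69 and 10.89 on the scrambled siRNA arrays. The VEGF-C arrays were the higher ones, but the gap to scrambled siRNA array 1 was smaller than that between the 2 scrambled arrays. The difference was +1.18 (SE 0.68, unadjusted p = 0.138, limma), and +0.78 without scrambled siRNA array 2.

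CXCL5, a neutrophil chemokine made mainly by epithelial cells, read 12.02 and 12.31 on the VEGF-C siRNA arrays, against 10.66 and 9.29 on the scrambled siRNA arrays. The groups did not overlap, but the gap between them was about as large as the 1.37 between the scrambled arrays. The difference was +2.19 (SE 0.57, unadjusted p = 0.0101, adjusted p = 0.245, limma). Its second probe set read 10.04 and 10.17 on the VEGF-C siRNA arrays, against 8.12 and 6.41 on the scrambled siRNA arrays (+2.85), and the remaining one, close to the floor, 4.74 and 3.86 against 3.16 and 3.06 (+1.19). All 3 probe sets had VEGF-C siRNA above scrambled siRNA, and the main one may also bind similar transcripts, as noted for CXCL2.

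CXCL6, the chemokine most like CXCL5, read 12.14 and 13.05 on the VEGF-C siRNA arrays, against 12.16 and 11.96 on the scrambled siRNA arrays. VEGF-C siRNA array 1 lay within the scrambled values and array 2 above them, with a difference of +0.53 (SE 0.54, unadjusted p = 0.367, limma). It was +0.08 without VEGF-C siRNA array 2 and +0.99 without VEGF-C siRNA array 1. The promoter stretches of CXCL5 and CXCL6 printed above differ at 1 of the first 50 bases.

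CXCL8, or interleukin 8, the main human neutrophil chemokine, read 14.63 and 14.99 on the VEGF-C siRNA arrays, against 14.12 and 13.62 on the scrambled siRNA arrays. The difference of its brighter probe set was +0.94 (SE 0.38, unadjusted p = 0.0508, limma). The second probe set read 13.65 and 14.27 on the VEGF-C siRNA arrays, against 12.74 and 12.01 on the scrambled siRNA arrays (+1.58). The groups overlapped in neither probe set.

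CCL20, the ligand of CCR6, read 7.29 and 7.96 on the VEGF-C siRNA arrays, against 5.81 and 5.10 on the scrambled siRNA arrays. Both VEGF-C arrays stood well above both scrambled arrays, and CCL20 had the smallest unadjusted p of the 9 genes in this comparison (+2.17, SE 0.43, unadjusted p = 0.00297, adjusted p = 0.217, limma).

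IL6, a cytokine that drives STAT3 signalling, read 10.15 and 10.24 on the VEGF-C siRNA arrays, against 8.84 and 7.55 on the scrambled siRNA arrays. The difference was +2.0 (SE 0.74, unadjusted p = 0.0388, adjusted p = 0.32, limma), with scrambled arrays 1.29 apart. IL1B, the precursor of IL-1 beta, read 11.43 and 10.73 on the VEGF-C siRNA arrays, against 11.01 and 10.94 on the scrambled siRNA arrays. Its VEGF-C values lay on either side of the scrambled ones (+0.11, SE 0.30), and its second probe set did the same (+0.15). Without VEGF-C siRNA array 1 the difference of IL1B was -0.24.

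The unadjusted p was under 0.05 for 5 of the 9 genes, all higher with VEGF-C siRNA and 0 lower, where 14.8% of all genes tested met that rule, 6.95% as higher and 7.8% as lower. Arrays did not overlap and were higher with VEGF-C siRNA for 7 of 9 and lower for 0, where 26.8% of all genes met the rule as higher and 26.6% as lower. A difference of at least log2 1 in that direction was found for 6 of 9, against 2.06% of all genes, and in the other for 0, against 1.1%. All 9 differences were above 0, as were 49.3% of those of all genes. The median difference of the 9 was +2.0, beside -0.004 over all 11131 genes, and 5 of the 9 were among the 10 highest differences of all genes. The genes were chosen with earlier results of these arrays known, so these shares describe the group and are no test of it. The number with an unadjusted p under 0.05 was 3 without scrambled siRNA array 2 (CCL20, CXCL3 and CXCL5, with 2.78% of all genes as higher), 3 without VEGF-C siRNA array 1 (the same genes, 5.14%) and 2 without VEGF-C siRNA array 2 (CCL20 and CXCL3, 4.89%).

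The G2 and mitosis mean moved with the group, and within every group it was higher on array 1 than on array 2. With that mean as a covariate the differences of CCL20 (+1.66, SE 0.50, unadjusted p = 0.0192), CXCL3 (+1.54, SE 0.53, unadjusted p = 0.0329) and CXCL5 (+1.18, SE 0.43, unadjusted p = 0.0398) kept an unadjusted limma p under 0.05. CXCL2 (+0.95), IL6 (+0.72), CXCL8 (+0.44), CXCL1 (+0.19), CXCL6 (+0.16) and IL1B (-0.27) did not have one, and 3.68% of all genes did as higher. The part of proliferation in the differences was not tested beyond this fit, which adjusts by the differences between arrays of a group. Array 1 was the higher one for 9 of the 9 genes in the NRP-2 siRNA group, 9 in the scrambled siRNA group and 2 in the VEGF-C siRNA group. Over all genes the shares were 50.1%, 49.9% and 49% in the same order.

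**Figure D2:**
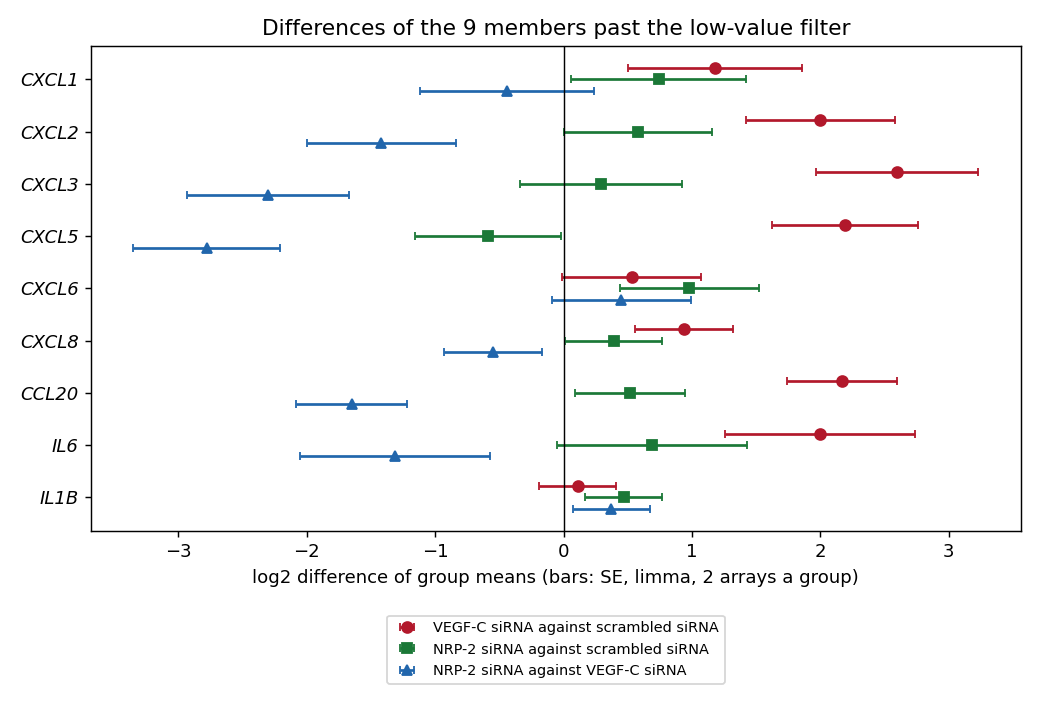
The log2 difference of group means with its limma SE for the 9 genes past the low-value filter, in 3 comparisons with 2 arrays a group. VEGF-C siRNA against scrambled siRNA (circles) runs from +0.11 for IL1B to +2.6 for CXCL3, while the comparison of both targeting siRNAs (triangles) is lowest for CXCL5 at -2.78.

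Among the other CXC genes of the cluster, PPBP, a CXCR2 ligand precursor best known from platelets, read 7.34 and 7.44 on the VEGF-C siRNA arrays, against 4.61 and 3.14 on the scrambled siRNA arrays. On the NRP-2 siRNA arrays it read 4.52 and 3.18. The lower scrambled and NRP-2 values lie at the floor, so the size of the difference is not known. PPBP passed the low-value filter only through its VEGF-C values, and its test is not used. PF4 read 4.00 and 5.04 on the VEGF-C siRNA arrays, against 3.53 and 3.37 on the scrambled siRNA arrays, and PF4V1 stayed between 3.08 and 3.23 on all arrays. These 3 genes were named for their position after their values were seen.

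The second comparison, NRP-2 siRNA against scrambled siRNA, addressed the siRNA to the co-receptor. None of the 9 genes had an unadjusted p under 0.05, where 13.3% of all genes tested had one, 6.43% as higher and 6.85% as lower, and 0 of 11131 genes passed the adjustment. No difference reached log2 1 in either direction, where 2.02% of all genes did as higher and 1.45% as lower. The difference was above 0 for 8 of 9, against 51.8% of all genes. The arrays of the NRP-2 siRNA group stood apart from each other. Array 1 stood above array 2 for 9 of 9 genes, by a median of log2 1.48 and by at least 1 in 7 of them, where 50.1% of all genes were higher on array 1 and 3.04% by at least 1. On the scrambled siRNA arrays too, array 1 was higher for 9 of 9 genes (median 0.80, against 49.9% of all genes), whereas on the VEGF-C siRNA arrays it was higher for 2 of 9 (median -0.29, against 49% of all genes). The comparisons with scrambled siRNA share its 2 arrays.

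Most of the CXC chemokines showed this split. CXCL1 read 13.06 and 11.01 on the NRP-2 siRNA arrays, against 11.69 and 10.89 on the scrambled siRNA arrays, so that array 1 had its highest value of the 6 arrays and array 2 lay within the scrambled values (+0.74, SE 0.68). CXCL2 read 10.58 and 9.03 on the NRP-2 siRNA arrays, against 9.76 and 8.70 on the scrambled siRNA arrays (+0.58, SE 0.58). CXCL3 read 9.84 and 8.03 on the NRP-2 siRNA arrays, against 9.13 and 8.16 on the scrambled siRNA arrays (+0.29, SE 0.63). In each of these genes the NRP-2 and scrambled values overlapped. Without NRP-2 siRNA array 1 the differences were -0.28 for CXCL1, -0.19 for CXCL2 and -0.61 for CXCL3, and without array 2 they were +1.77, +1.35 and +1.20 in the same order.

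CXCL5 was the exception in direction. It read 9.99 and 8.79 on the NRP-2 siRNA arrays, against 10.66 and 9.29 on the scrambled siRNA arrays (-0.59, SE 0.57), and its second probe set gave -0.32. The arrays overlapped, and the difference was +0.10 without scrambled siRNA array 1 and -1.27 without scrambled siRNA array 2. Fitted with the 26-gene G2 and mitosis mean it was -1.37 (SE 0.39, unadjusted p = 0.0168, limma).

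CXCL6 read 13.79 and 12.30 on the NRP-2 siRNA arrays, against 12.16 and 11.96 on the scrambled siRNA arrays. These groups did not overlap, and the difference was +0.98 (SE 0.54, unadjusted p = 0.124, limma), or +0.24 without NRP-2 siRNA array 1. IL1B was the other gene without overlap, at 11.74 and 11.15 on the NRP-2 siRNA arrays, against 11.01 and 10.94 on the scrambled siRNA arrays (+0.47, SE 0.30), and its second probe set gave +0.51. Non-overlap was seen for 25.3% of all genes as higher and 24.4% as lower, so 2 and 0 of 9 are near or below the background.

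CXCL8 read 14.77 and 13.76 on the NRP-2 siRNA arrays, against 14.12 and 13.62 on the scrambled siRNA arrays (+0.39, SE 0.38). CCL20 read 6.45 and 5.50 on the NRP-2 siRNA arrays, against 5.81 and 5.10 on the scrambled siRNA arrays (+0.52, SE 0.43). IL6 read 9.91 and 7.87 on the NRP-2 siRNA arrays, against 8.84 and 7.55 on the scrambled siRNA arrays (+0.69, SE 0.74). In all 3 genes array 1 stood above both scrambled arrays and array 2 between them. The median difference of the 9 genes was +0.52, beside 0.012 over all genes. It was -0.19 without NRP-2 siRNA array 1 and +1.20 without array 2, where 6 of 9 genes (CXCL1, CXCL2, CXCL3, CXCL6, CXCL8 and IL6) had an unadjusted p under 0.05 as higher, against 12.7% of all genes.

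**Figure D3:**
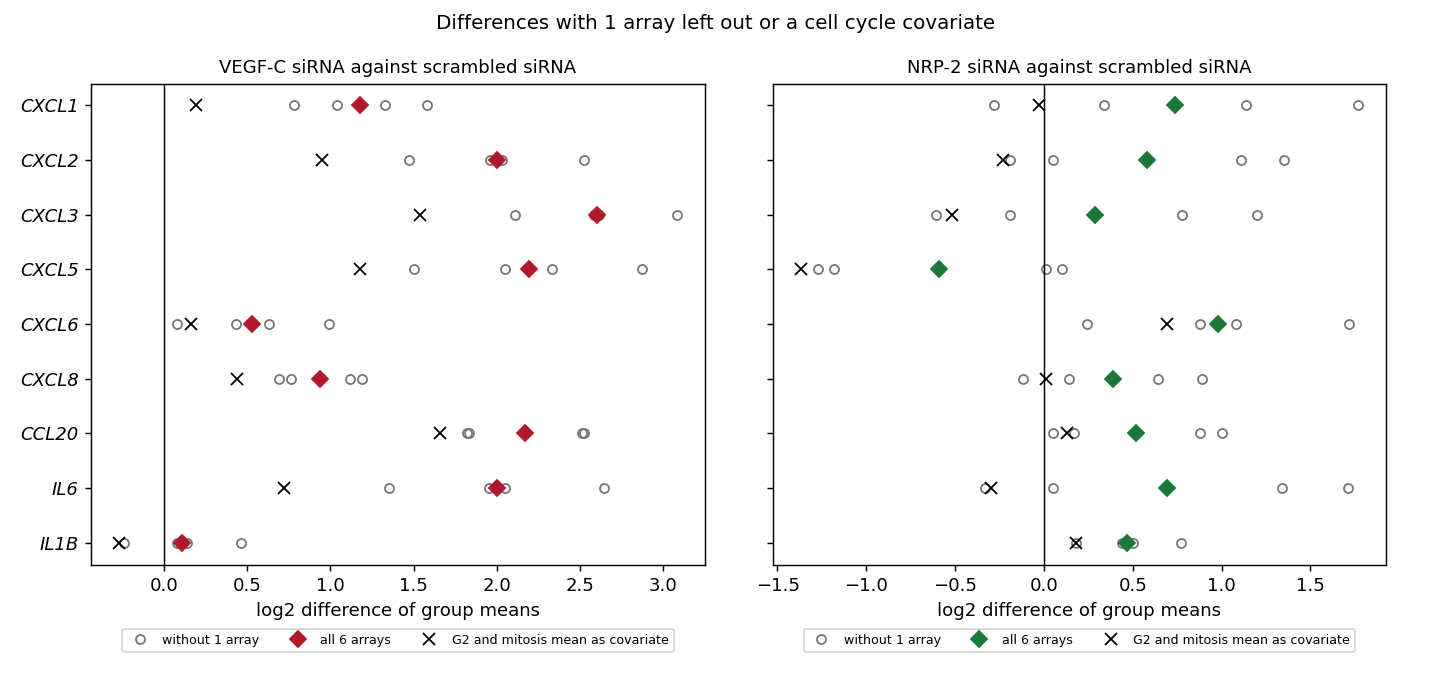
The log2 difference of the 9 genes for VEGF-C siRNA against scrambled siRNA (left) and NRP-2 siRNA against scrambled siRNA (right), with all 6 arrays (diamonds), without each array in turn (open circles) and fitted with the 26-gene G2 and mitosis mean (crosses). For CXCL3 with VEGF-C siRNA the values without 1 array run from +2.11 to +3.08, and with NRP-2 siRNA from -0.61 to +1.20.

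The third comparison set the targeting siRNAs against each other. CXCL5, CCL20 and CXCL3 were lower with NRP-2 siRNA at an unadjusted p under 0.05 (3 of 9, where 18.2% of all genes had such a p, 8.66% as lower), and 0 were higher, against 9.54%. No gene passed the adjustment (0% called). CXCL5 read 9.99 and 8.79 on the NRP-2 siRNA arrays, against 12.02 and 12.31 on the VEGF-C siRNA arrays. It had a difference of -2.78 (SE 0.57, 6.85-fold, unadjusted p = 0.00357, adjusted p = 0.127, limma), and the second probe set gave -3.17. CXCL3 read 9.84 and 8.03 on the NRP-2 siRNA arrays, against 11.23 and 11.26 on the VEGF-C siRNA arrays (-2.30, SE 0.63, unadjusted p = 0.0125, adjusted p = 0.171, limma). CCL20 read 6.45 and 5.50 on the NRP-2 siRNA arrays, against 7.29 and 7.96 on the VEGF-C siRNA arrays (-1.65, SE 0.43, unadjusted p = 0.0101, adjusted p = 0.159, limma). For these 3 genes both NRP-2 arrays lay below both VEGF-C arrays.

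CXCL2 (-1.42, SE 0.58) and IL6 (-1.31, SE 0.74) also had no overlap, which makes 5 of 9 genes lower without overlap, beside 22.4% of all genes, and 0 higher, beside 24.1%. The same 5 differed by log2 1 or more as lower, beside 1.64% of all genes, and 0 as higher, beside 1.85%. Without NRP-2 siRNA array 2 the difference was -0.64 for CXCL2, -0.29 for IL6 and -1.40 for CXCL3, and without array 1 it was -2.19 for CXCL2, -2.32 for IL6 and -3.21 for CXCL3. The differences of 2 of 9, CXCL6 and IL1B, were above 0, beside 52.7% of all genes. CXCL1 (-0.44, SE 0.68), CXCL8 (-0.55, SE 0.38), CXCL6 (+0.45, SE 0.54) and IL1B (+0.37, SE 0.30) overlapped between the siRNAs, which does not show that they stood alike. Fitted with that 26-gene mean CXCL5 was at -2.55 (SE 0.33) and CXCL3 at -2.07 (SE 0.40). The number of genes with an unadjusted p under 0.05 was 7 as lower without NRP-2 siRNA array 1 (7.41% of all genes) and 1, CXCL5, without VEGF-C siRNA array 2 (6.06%).

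Over the 6 arrays the genes fell into those that followed each other and those that did not. Pearson correlations were 0.99 between CXCL2 and IL6, 0.98 between CXCL2 and CXCL3 and between CXCL8 and IL6, and 0.97 between CXCL3 and CCL20. CXCL6 had 0.14 with CXCL5 and 0.80 with CXCL1, and IL1B had at most 0.46 with any of the others. The genes outside the group closest to the mean of the 9, each centred on its own mean, were DUSP1, a phosphatase of MAP kinases (r = 0.999), TUFT1 (0.999), NUB1 (0.993), WDR41 (0.993) and CCN2, a matrix-associated growth regulator (0.992). DUSP1 read 11.06 and 9.91 on the NRP-2 siRNA arrays, 11.23 and 11.46 on the VEGF-C siRNA arrays, and 10.44 and 9.78 on the scrambled siRNA arrays. The arrays shared their siRNA groups and their preparation, and the genes were picked as the closest of all tested, so these values are descriptions.

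The receptors of the neutrophil chemokines and of CCL20 were near the floor in these cells. CXCR1 read between 1.87 and 1.93, CXCR2 between 2.76 and 2.85 and CCR6 between 2.81 and 2.92 on the 6 arrays. The IL-6 receptor genes were above it, with means of 8.13 for IL6R and 12.54 for IL6ST, as were the IL-1 receptor genes IL1R1 (5.58) and IL1RAP (7.32). IL1RAP read 7.59 and 7.77 on the NRP-2 siRNA arrays, against 6.93 and 7.37 on the scrambled siRNA arrays (+0.53). In that comparison IL6R, IL6ST and IL1R1 were at -0.20, -0.10 and -0.33. Of 15 receptor genes in the list 9 were tested. An unadjusted p under 0.05 was found for 3 as higher and 2 as lower in the NRP-2 siRNA group, and for 1 as higher and 0 as lower in the VEGF-C siRNA group. Over all genes these shares were 6.43% and 6.85% for NRP-2 and 6.95% and 7.8% for VEGF-C, so that the VEGF-C count is near the background.

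IL1R2, a decoy receptor for IL-1, read 7.95 and 7.19 on the NRP-2 siRNA arrays, 7.15 and 7.70 on the VEGF-C siRNA arrays, and 6.56 and 5.88 on the scrambled siRNA arrays. Both targeting siRNAs stood above the scrambled arrays (+1.35 for NRP-2 and +1.20 for VEGF-C, SE 0.37 each). IL1RL1, the receptor of IL-33, read 5.12 and 7.73 on the NRP-2 siRNA arrays, against 9.90 and 9.92 on the scrambled siRNA arrays (-3.48, SE 0.89, unadjusted p = 0.0093, adjusted p = 0.249, limma). Its ligand IL33 read 11.37 and 11.34 on the VEGF-C siRNA arrays, against 11.96 and 12.32 on the scrambled siRNA arrays (-0.79, SE 0.22). TLR3, a sensor of double-stranded RNA, was at -0.93 (SE 0.19) for NRP-2 and +0.10 for VEGF-C, and TLR2 at +1.00 and +0.01 in the same order.

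IL1RN, the natural antagonist of the IL-1 receptor, read 9.56 and 8.49 on the NRP-2 siRNA arrays, 8.57 and 9.26 on the VEGF-C siRNA arrays, and 8.24 and 8.30 on the scrambled siRNA arrays. Both groups lay above the scrambled arrays, by +0.76 (NRP-2) and +0.64 (VEGF-C, SE 0.40 each). Of the 10 antagonist and IL-1 processing genes tested, 2 were higher with NRP-2 siRNA at an unadjusted p under 0.05, SIGIRR (+0.56) and PYCARD (+0.65). With VEGF-C siRNA 1 was lower, TNFRSF11B (-1.45, SE 0.42). Of 12 other cytokines and chemokines tested, 1 was higher and 2 lower with VEGF-C siRNA at that p: CXCL10, an interferon-induced chemokine (+0.77, SE 0.24), IL33, and TNFSF10, the ligand TRAIL (-0.85, SE 0.27). With NRP-2 siRNA 1 was lower, CXCL11 (-1.11, SE 0.35). Against the shares of all genes given for the receptors, counts of 1 in 10 or 12 are near the background.

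Genes of the AP-1, C/EBP and NF-kB families, with NF-kB feedback genes, were followed in 2 lists, with no test of a list. Whether they act on the 10 genes was not tested. Of 11 AP-1 and C/EBP genes tested, 4 were higher with VEGF-C siRNA at an unadjusted p under 0.05 and 0 lower, FOSL1 (+0.82, SE 0.19), CEBPG (+0.62), JUND (+0.36) and MAFF (+0.34), where 6.95% of all genes were higher and 7.8% lower at that p. The median of the list was -0.12 for NRP-2, where FOSL1 alone had such a p as higher (+0.60), and +0.34 for VEGF-C. Between the siRNAs 5 of the 11 were lower with NRP-2 siRNA at that p, against 8.66% of all genes, among them CEBPG (-0.88), JUND (-0.50) and MAFF (-0.46). Of 16 NF-kB subunit and feedback genes, 4 were higher and 2 lower with NRP-2 siRNA (median +0.28) and 3 higher and 0 lower with VEGF-C siRNA (median +0.11), against 6.43% and 6.85% of all genes for NRP-2 and 6.95% and 7.8% for VEGF-C. Between the siRNAs 1 of the 16 was higher and 0 lower with NRP-2 siRNA (median +0.09), against 9.54% and 8.66% of all genes. NFKBIA, the inhibitor that NF-kB itself induces, read 12.05 and 11.44 on the NRP-2 siRNA arrays, 11.45 and 11.45 on the VEGF-C siRNA arrays, and 10.87 and 11.07 on the scrambled siRNA arrays. It stood above the scrambled arrays with both, by +0.77 and +0.48 (SE 0.22).

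Among 18 genes that NF-kB is known to induce besides the chemokines, 1 was higher and 1 lower with NRP-2 siRNA at an unadjusted p under 0.05, and 3 were higher and 0 lower for VEGF-C, against 6.43% and 6.85% of all genes for NRP-2 and 6.95% and 7.8% for VEGF-C. LCN2 was among the 3, and so was CFB, which read 4.16 and 5.11 on the VEGF-C siRNA arrays, against 3.69 and 3.82 on the scrambled siRNA arrays. CFB passed the low-value filter only through its VEGF-C values, so its test is not used and that count is to be read without it. LCN2, an iron-binding protein of neutrophils and inflamed epithelium, read 12.72 and 12.76 on the NRP-2 siRNA arrays, 13.65 and 13.72 on the VEGF-C siRNA arrays, and 12.91 and 13.11 on the scrambled siRNA arrays. It was +0.68 with VEGF-C siRNA (SE 0.13, unadjusted p = 0.00239, adjusted p = 0.217) and -0.95 for NRP-2 siRNA against VEGF-C siRNA (SE 0.13, unadjusted p = 0.000455, adjusted p = 0.098, limma). C3 was at +1.12 with NRP-2 siRNA (SE 0.37) and EHF at -0.80 (SE 0.23).

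Of 7 genes of IL-6 signalling and its feedback, 0 were higher and 2 lower with NRP-2 siRNA at that p, and 2 were higher and 1 lower for VEGF-C, against 6.43% and 6.85% of all genes for NRP-2 and 6.95% and 7.8% for VEGF-C. PIM1, a kinase gene induced by STAT3, read 8.16 and 8.12 on the NRP-2 siRNA arrays, 9.03 and 9.16 on the VEGF-C siRNA arrays, and 8.65 and 8.33 on the scrambled siRNA arrays (-0.35 for NRP-2 and +0.60, SE 0.15, for VEGF-C). SOCS3, the feedback inhibitor of IL-6 receptor signalling, read 9.11 and 9.34 on the NRP-2 siRNA arrays, 10.13 and 10.29 on the VEGF-C siRNA arrays, and 10.13 and 9.72 on the scrambled siRNA arrays (-0.71, SE 0.19, for NRP-2 and +0.28 for VEGF-C). For both genes the NRP-2 arrays lay below all the others. PTPN11, the phosphatase SHP2, was below the scrambled arrays with both siRNAs (-0.37 for NRP-2 and -0.41 for VEGF-C, SE 0.14), and SOCS2, another feedback inhibitor, above them with both (+0.63 for NRP-2 and +0.73 for VEGF-C, SE 0.28). Among 12 regulators of cytokine mRNA decay only DUSP1 had an unadjusted p under 0.05, with VEGF-C siRNA (+1.23, SE 0.42, unadjusted p = 0.0296, limma). Against 6.95% of all genes as higher, 1 of 12 is near the background.

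**Figure D4:**
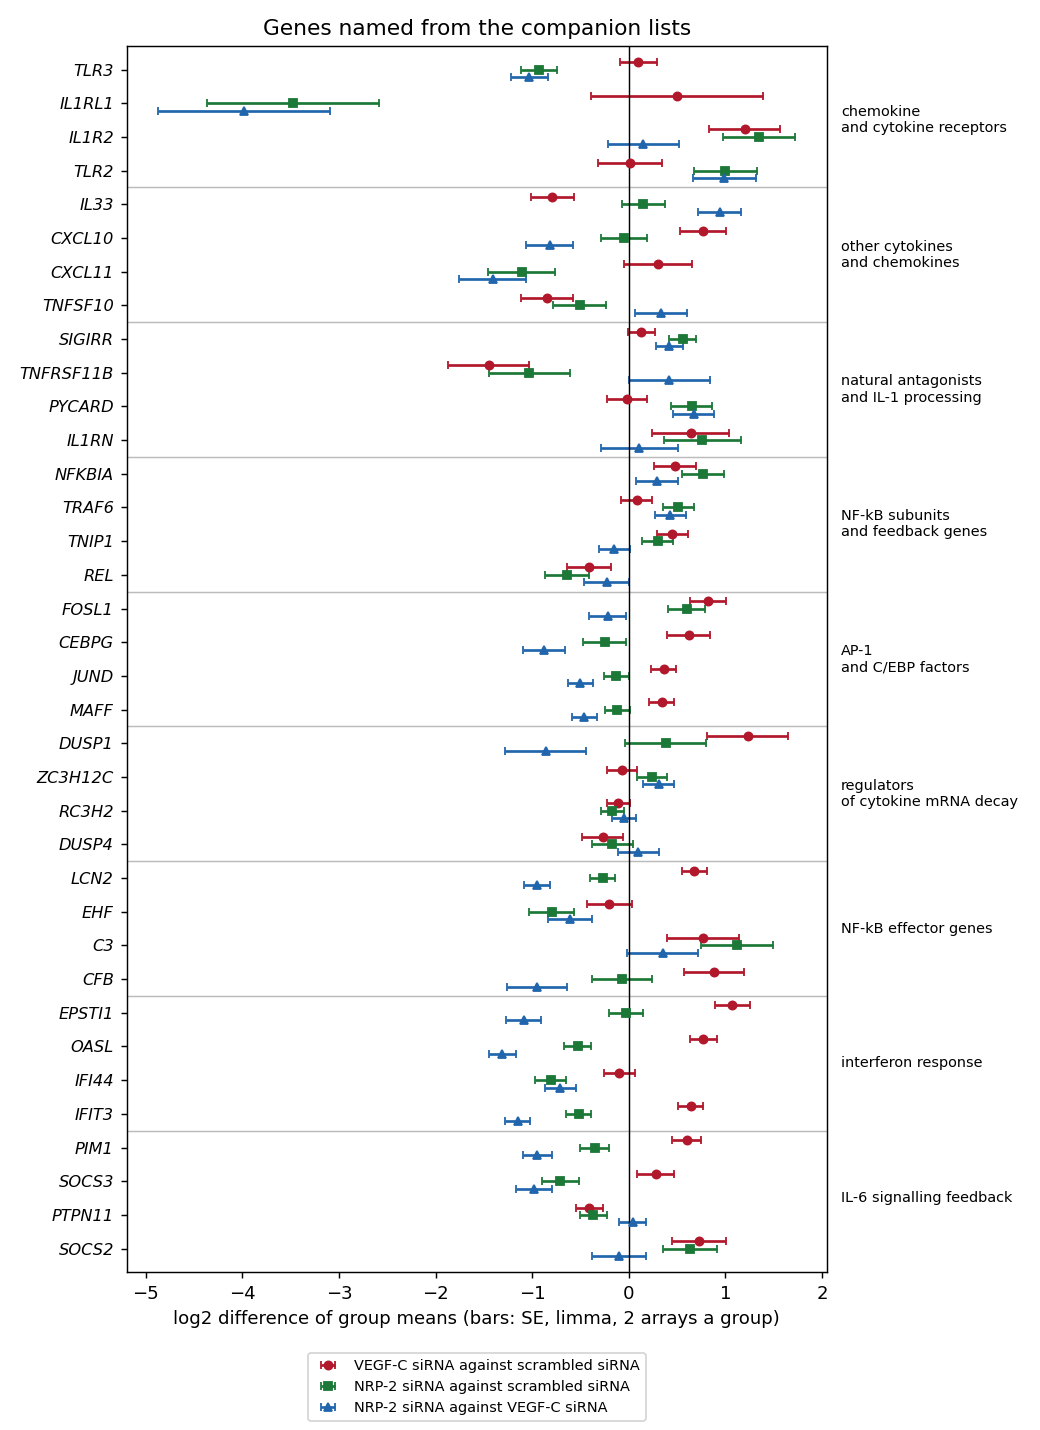
The log2 difference of group means with its limma SE for up to 4 genes of each companion list other than the cell type marker and G2 and mitosis lists. They are those with the smallest p over the comparisons with scrambled siRNA. CFB is drawn too, though its test is not used. LCN2, PIM1, CEBPG and IFIT3 lie below 0 with NRP-2 siRNA (squares) and above 0 for VEGF-C (circles), while IL1R2, NFKBIA, FOSL1 and SOCS2 lie above 0 with both.

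Interferon response genes are induced by double-stranded RNA as well as by interferon. Of 20 tested, 1 was higher and 4 lower with NRP-2 siRNA at an unadjusted p under 0.05, and 7 were higher and 0 lower for VEGF-C, where all genes had 6.43% and 6.85% for NRP-2 and 6.95% and 7.8% for VEGF-C. Between the siRNAs 11 of the 20 were lower with NRP-2 siRNA, against 8.66% of all genes, OASL (-1.31, SE 0.14) and IFIT3 (-1.15, SE 0.13) among them. Their part in the levels of the chemokines was not tested.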

How the data were processed

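The deposited values are log2 signals of each probe set. The submitters' processing notes name Partek and GCRMA, and the sources used here give neither versions nor settings. GCRMA values near the floor are compressed, so differences of dim genes are understated. Of 54675 probe sets 62 are controls, while 41091 have a single gene name in the platform annotation and 1801 several. One limma model (limma 3.58.1, R 4.3.3, two-sided tests, 3 residual and 2.46 prior degrees of freedom) held all 6 arrays and the 11131 genes averaging log2 4 or more, each by its brightest probe set. Further probe sets were fitted together with all 54613 that are no controls, and genes under the filter in a fit without it. A call was a Benjamini-Hochberg adjusted p under 0.05. In the fit of all 54613 probe sets 0 were called for VEGF-C siRNA against scrambled siRNA and 2 for NRP-2 siRNA against scrambled siRNA. Between the targeting siRNAs 11 were called. No probe set of the 10 genes was among them. The number of arrays limits the precision. Named were the 10 genes, both targets, the receptors, the 5 genes closest in pattern, and in each list the 4 with the smallest p against scrambled siRNA. The members and lists were chosen with earlier results of these data known. The model was tested on simulated data. No protein sequences were used here.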

Additional observations from a re-analysis of the deposited data

How the results depend on the processing

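Without the low-value filter 1 gene passed the adjusted threshold for VEGF-C siRNA against scrambled siRNA and 1 for NRP-2 siRNA against VEGF-C siRNA, where the filtered fits had 0. For VEGF-C against scrambled siRNA 4 of the 10 genes then had an unadjusted p under 0.05, against 5.28% of all genes as higher. IL6 was no longer among them (limma, unadjusted p = 0.0756, with the filter 0.0388). The number of the 9 genes with an unadjusted p under 0.05 ran from 2 to 7 without single arrays for VEGF-C against scrambled siRNA, from 0 to 6 for NRP-2 against scrambled siRNA, and from 1 to 7 between the targeting siRNAs. With the G2 and mitosis covariate it was 3 and 1 in the comparisons with scrambled siRNA. The median difference of the genes was 0.72 with that covariate and 1.26 over the mean of all probe sets for VEGF-C against scrambled siRNA. Over that mean CXCL2 was at 0.68, against 2.0 by its brightest probe set, since 2 probe sets near the floor enter it. Without single arrays the median difference ran from 1.35 to 2.52, from -0.19 to 1.20 and from -2.12 to -0.29 in these comparisons in the same order. The cause of the other moves was not tested. A log2 6 filter, equal medians, quantile normalization and fits of only 2 groups kept these counts within 1.5 times and these medians within the spread between arrays.

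Signs turned for the following genes. With the covariate, IL1B was at -0.27 for VEGF-C, and CXCL1, CXCL2, CXCL3 and IL6 were at -0.03, -0.23, -0.52 and -0.30 for NRP-2, each against scrambled siRNA. Without single arrays IL1B ran from -0.24 to 0.46 for VEGF-C against scrambled siRNA. For NRP-2 against scrambled siRNA CXCL1 ran from -0.28 to 1.77, CXCL2 from -0.19 to 1.35, CXCL3 from -0.61 to 1.20, CXCL5 from -1.27 to 0.10, CXCL8 from -0.12 to 0.89 and IL6 from -0.33 to 1.71. Between the targeting siRNAs CXCL1 ran from -1.47 to 0.59 and CXCL6 from -0.29 to 1.19. CXCL8 kept its sign there but ran from -1.05 to -0.04.

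Replicate numbers do not establish a pairing, since the labels give no shared day or culture. Deviations of the arrays numbered 1 correlated over genes at 0.58 between the NRP-2 and scrambled groups, 0.12 between NRP-2 and VEGF-C and 0.11 between VEGF-C and scrambled. With the replicate block 0 genes passed the adjusted threshold in any comparison, and 6 of the 9 genes had an unadjusted p under 0.05 for VEGF-C against scrambled siRNA, 0 for NRP-2 against scrambled siRNA and 5 between the targeting siRNAs. The genes added by the block were CXCL8 against scrambled siRNA (limma, unadjusted p = 0.0351, without the block 0.0508), and CXCL2 (0.00945, without it 0.0537) and IL6 (0.0439, without it 0.132) between the targeting siRNAs.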
